A study of Mus musculus with 16 samples.

Results

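The comparison described here is SZN-1326-p against anti-GFP 48 h after dosing, read separately within each annotated cell type of the mouse colon. It rests on 6 of the 16 animals of the study, 3 in each arm. All 6 were 7-week-old female C57Bl/6J mice that drank 4% dextran sulfate sodium (DSS), which damages the lining of the colon. On day 4 of DSS they received 10 mg/kg of SZN-1326-p or of an anti-GFP antibody, which serves as the control because mice carry no GFP. Tissue was taken on day 6, with DSS still in the water. SZN-1326-p is an antibody-based molecule that switches on Wnt signalling through chosen Frizzled receptors, and the deposited annotation names its arm SWAP. For reference, levels from the 2 uninjured mice taken at 48 h are given where their libraries were large enough. A cell type entered the comparison if at least 2 animals of each arm held 10 or more of its cells. This kept 24 of 46 types: 7 of 17 epithelial, 8 of 18 stromal and 9 of 11 immune. The 136 libraries of 1 type in 1 animal held 7437 of the 8363 cells of these 6 mice, out of 22717 cells in the series. Just inside the rule were EnteroPrecur (12 and 19 cells in 2 anti-GFP mice, the third had 8) and EnteroEnd1, with 2 animals an arm. Just outside was the transit-amplifying type TA1, with 9, 6 and 23 cells with anti-GFP and 11, 10 and 29 with SZN-1326-p.

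Wnt ligands bind Frizzled and LRP receptors on stem and progenitor cells at the crypt base, which stabilises beta-catenin and switches on genes such as Axin2, Rnf43 and Lgr5. Fibroblasts around the crypt supply Wnt ligands, R-spondins and BMP inhibitors, and progenitors that leave this niche mature into absorptive colonocytes and secretory cells. In DSS colitis the surface epithelium is lost, neutrophils and monocytes enter the tissue, and the remaining epithelium takes up an altered, injury-associated state. The type names are those of the annotation: AltEnteroPC and AltEnterocyte are its alternative enterocyte progenitors and enterocytes, FB marks fibroblasts, and TA2 is a transit-amplifying, that is dividing, progenitor.

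The 6 libraries held 936 to 2033 cells and a median of 7871 to 11153.5 UMIs (counted RNA molecules) per cell. Several measures differed between the arms. Epithelial cells formed 20.5% to 26.8% of the cells with anti-GFP and 31.6%, 30.7% and 54.9% with SZN-1326-p. SZN-1326-p replicate 3 stood apart with a median mitochondrial share of 24.1% of UMIs over all its cells, against at most 7.06% in the other 5 mice. Type by type, this share was higher without overlap in the SZN-1326-p arm in 2 of 24 types and lower in 0. Within types, the median UMI number per cell was lower in every SZN-1326-p animal than in every anti-GFP animal in 13 of 24 types. The median level of long relative to short transcripts (upper and lower quartile of length) was lower in the same way in 17 of 24. Summed epithelial markers were higher without overlap in 14 of the 17 types outside the epithelium. The part of these measures in the results below was not tested. Only 5 cell barcodes occurred in more than 1 of the 6 libraries. Cells with UMIs of 2 or more markers of another lineage made up 27.9% to 52.5% of each library. The defining markers of the named lineages were present: for example, summed enterocyte markers reached 222 to 284 in the anti-GFP arm against 105 to 125 in the SZN-1326-p arm in AltEnterocyte, in normalized UMIs per cell. Each animal is 1 replicate, so p-values describe the spread between animals, with n = 3 an arm in 18 of the types. There were 2 anti-GFP animals in EnteroPrecur, LymphEndo, Bcell2_IgM and TcellCD8_NK, and 2 in each arm in EnteroEnd1 and Bcell1_IgM.

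A gene counted as called when limma gave a Benjamini-Hochberg adjusted p under 0.05 within its cell type. Levels are normalized UMIs per cell, in the order of replicates 1 to 3, and differences are SZN-1326-p minus anti-GFP on the scale log2(level + 0.1), which understates the change of low genes. Over the 24 types 473 of 182114 gene and type pairs were called (0.26%), 302 higher (0.166%) and 171 lower (0.0939%). They involved 391 distinct genes. The epithelium held 351 of these calls, the stroma 40 and the immune types 82.

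Calls were unevenly spread over the types. In the fit with all groups of the study EnteroPrecur had most, with 227 of 7637 genes (2.97%). This order depended on the fit: AltEnteroPC had 474 calls and EnteroPrecur 26 when the 6 mice were fitted alone, and 624 and 141 with the replicate number as a block. AltEnterocyte followed with 66 of 7193 (0.918%), 20 higher and 46 lower, and activated neutrophils, ActNeutrophil, with 62 of 6748 (0.919%), 40 higher (0.593%) and 22 lower. StemCell had 24 of 7735 (0.31%), TA2 15 of 8019 (0.187%), AltEnteroPC 11 of 7639 (0.144%), BasalGoblet 6 of 7650 (0.0784%) and EnteroEnd1 2 of 8209 (0.0244%). In the stroma, 11 genes each were called in LymphEndo (of 7607, 0.145%), BaseCryptFB2 (of 8011, 0.137%) and InjuryCryptFB2 (of 8310, 0.132%). MyoFB had 3 of 7905 (0.038%), CryptFB1 2 of 8050 (0.0248%), VascEndo 1 of 7682 (0.013%) and CryptFB2 1 of 7757 (0.0129%). Among the other immune types, Bcell1_IgM had 5 of 6973 (0.0717%), Bcell2_IgM 4 of 6974 (0.0574%), TcellCD8_NK 3 of 7438 (0.0403%) and Tcell2 3 of 7655 (0.0392%). InjuryMono2 had 2 of 7367 (0.0271%), Macrophage 2 of 7539 (0.0265%) and InjuryMono1 1 of 6891 (0.0145%). In InjuryCryptFB1 (of 8038) and Dendritic (of 7087) limma called 0 genes (0%), with 559 and 259 genes at an unadjusted p under 0.05. Voom on UMI sums called 1 and 0 genes there. The counts rest on few animals: the EnteroPrecur count was 1 without SZN-1326-p replicate 3 and 2090 without anti-GFP replicate 3, which leaves 1 anti-GFP animal that is assumed to vary like the other groups.

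**Figure D1:**
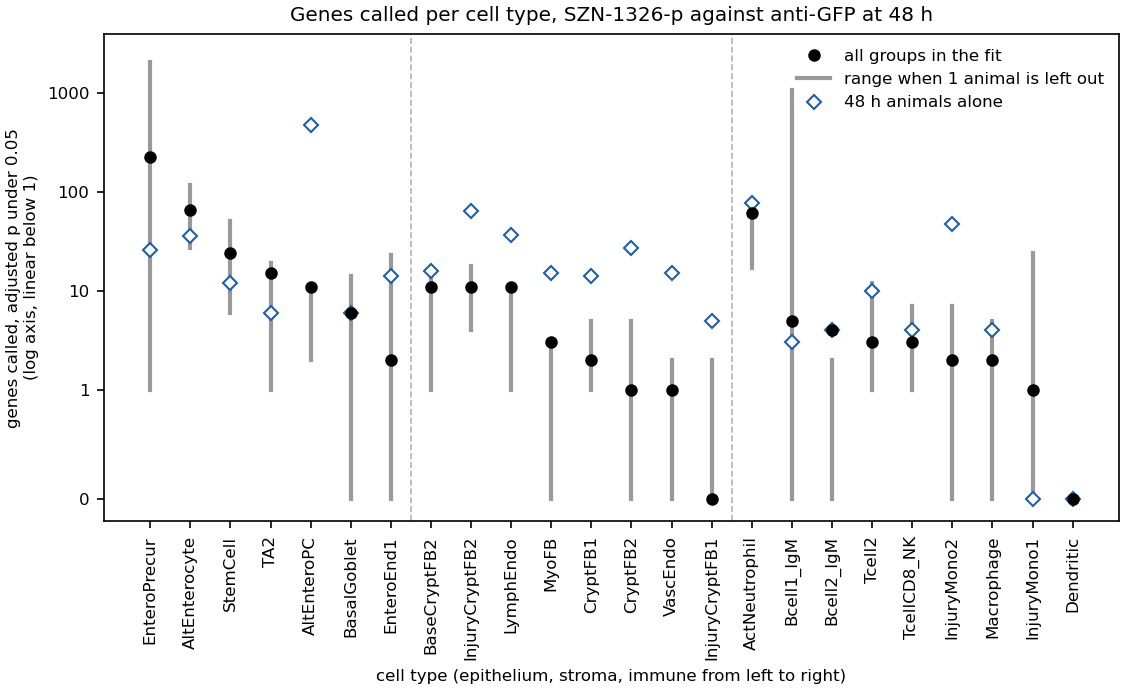
Genes called per cell type between SZN-1326-p and anti-GFP at 48 h (vertical axis, number of genes on a log scale that is linear below 1; horizontal axis, the 24 types in order of layer and count). Black points are the reported counts, up to 227 in EnteroPrecur, grey bars the range over fits that leave out 1 animal, and open diamonds the fit of the 6 mice at 48 h alone.

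Heat shock genes were lower with SZN-1326-p in epithelial and stromal types alike, and Hspa1b was called in more types than any other gene. These genes encode the cytosolic chaperones that refold damaged proteins and are switched on together by heat shock factor. Of 344 measured pairs of a listed heat shock gene and a type, 18 fell and 0 rose, which is 5.23% lower calls beside 0.0939% over all pairs. The calls lay in 10 types. The list's median difference was below the median of all genes in 21 of 24 types: 7 of 7 epithelial, 8 of 8 stromal and 6 of 9 immune. In 139 of the 344 pairs every SZN-1326-p animal was below every anti-GFP animal, and in 9 pairs above. Over all genes the arms did not overlap and were lower in 9.44% and higher in 9.52% of pairs.

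Hspa1b, an inducible form of the chaperone Hsp70, led the list. It lies on chromosome 17 (GRCm38, chr17:34956436-34959238, minus strand), fell in 8 types and had a difference below 0 in 20 of 24. In the fibroblasts CryptFB1 its level was 3.65, 7.48 and 6.43 with anti-GFP and 1.6, 1.23 and 1.04 with SZN-1326-p, a difference of -2.06 with an SE of 0.26 with a limma adjusted p of 0.000262. The uninjured mice had 1.56 and 0.801 there, so that the anti-GFP mice were the high group. In the injury fibroblasts InjuryCryptFB2 the levels were 1.14, 3.0 and 2.12 against 0.353, 0.488 and 0.401, a difference of -2.00 with an SE of 0.28 with a limma adjusted p of 0.000383. In EnteroPrecur they were 4.64 and 5.61 in the 2 anti-GFP mice and 0.37, 0.75 and 0.311 with SZN-1326-p (-3.25 with an SE of 0.29, limma adjusted p 0.00408). The arms were thus apart in all 3 types, and these calls remained with any single animal left out. Without cells that carry 2 markers of another lineage, those of CryptFB1 and InjuryCryptFB2 were lost (limma adjusted p 0.137 and 0.717), as was the TA2 call given next (0.0531), and that of EnteroPrecur remained.

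Stem and progenitor cells gave the same picture with less margin. In StemCell, Hspa1b was at 4.49, 3.24 and 5.78 with anti-GFP, 0.891, 1.47 and 0.482 with SZN-1326-p and 1.1 and 0.435 in uninjured mice (-2.21 with an SE of 0.40, limma adjusted p 0.0137). In TA2 it was at 2.89, 3.3 and 3.09 against 0.945, 1.32 and 1.06 (limma adjusted p 0.0342). It also fell in AltEnteroPC, AltEnterocyte and the lymphatic endothelium LymphEndo (2 anti-GFP animals), with differences of -2.24, -1.76 and -2.19 on the log2 scale. These 5 calls depended on the animals. The StemCell call was lost without anti-GFP replicate 1 or 3 or SZN-1326-p replicate 1 (highest adjusted p 0.11), that of AltEnteroPC without anti-GFP replicate 2 or 3 or SZN-1326-p replicate 3 (0.12) and that of LymphEndo without anti-GFP replicate 2 or SZN-1326-p replicate 3 (1). The TA2 call was lost without any 1 of the 6 (0.29) and the AltEnterocyte call without any but SZN-1326-p replicate 1 (0.146). Macrophages showed arms that did not overlap, at 2.85, 2.91 and 3.19 against 1.0, 0.848 and 1.01, but the gene was not called (limma adjusted p 0.4). In Dendritic the arms overlapped, at 1.68, 0.292 and 0.175 against 0.557, 0.356 and 0.975.

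**Figure D2:**
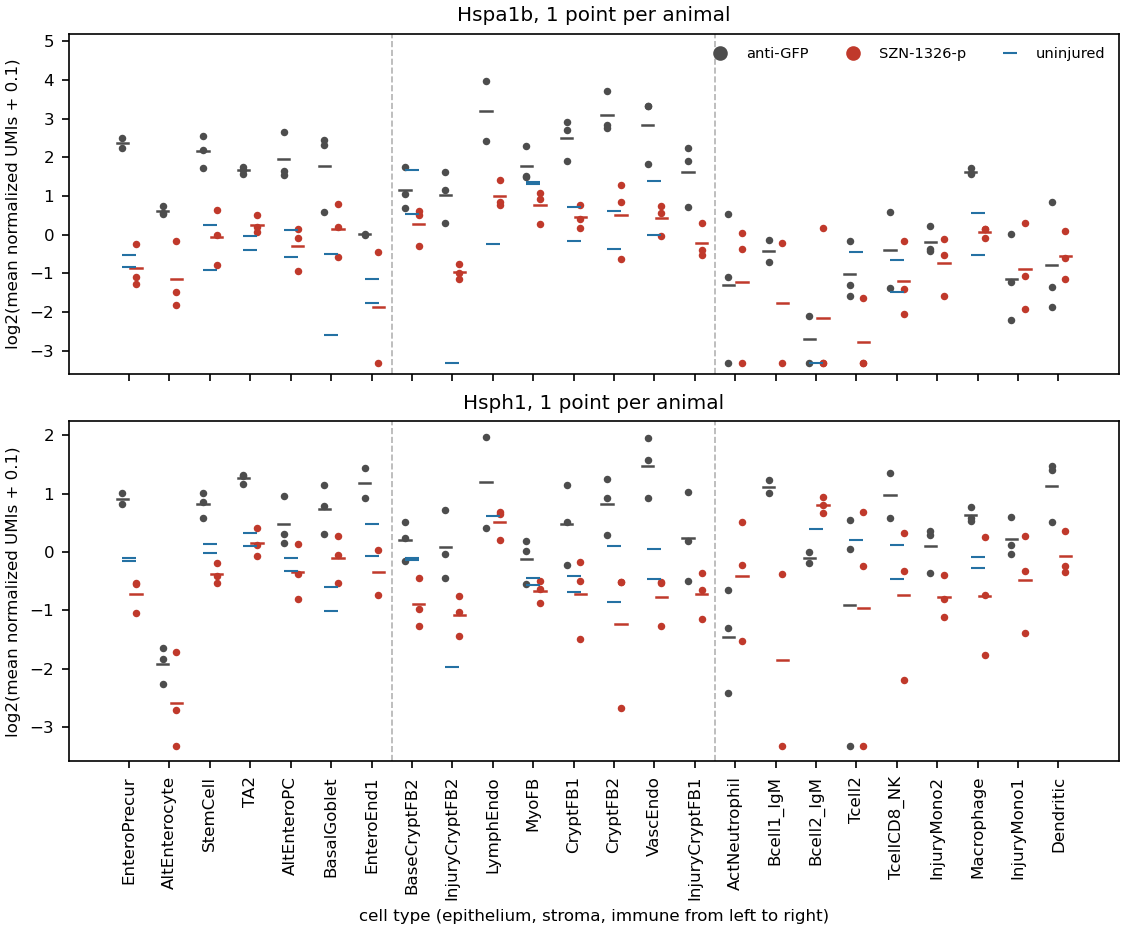
Levels of Hspa1b (upper panel) and Hsph1 (lower panel) in 24 cell types, as log2(mean normalized UMIs per cell + 0.1), 1 point per animal, with short horizontal lines for the arm means and blue dashes for uninjured mice. Hspa1b lies lower in every SZN-1326-p animal than in every anti-GFP animal in 16 of 24 types, and the points of both arms mix in types such as Dendritic and ActNeutrophil.

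Other cytosolic chaperones moved the same way in fewer types. Hsph1, which encodes a nucleotide exchange factor of Hsp70, fell in 4 types and was below 0 in 22 of 24. In the vascular endothelium VascEndo its level was 1.79, 3.76 and 2.88 with anti-GFP and 0.59, 0.599 and 0.315 with SZN-1326-p (-2.26 with an SE of 0.35, limma adjusted p 0.00144). In TA2 it was 2.15, 2.36 and 2.4 against 0.992, 1.23 and 0.86 (-1.11 with an SE of 0.18, limma adjusted p 0.0162). It also fell in StemCell and EnteroPrecur, as did Dnaja1, a co-chaperone that delivers clients to Hsp70. Hspa8, the constitutive Hsp70 that every cell uses, was called in 0 types, with a median difference of -0.32 over 24 types. Without 1 animal, the VascEndo call of Hsph1 was lost for anti-GFP replicate 2 or SZN-1326-p replicate 3 (highest adjusted p 0.13) and the TA2 call for SZN-1326-p replicate 1 or 3 (0.278). The StemCell calls of Hsph1 and Dnaja1 each remained in 1 of 6 such fits (0.323 and 0.417), and the EnteroPrecur calls in 4 and 3 of 5 (0.0581 and 0.0957). The VascEndo call was also lost without cells that carry 2 markers of another lineage (limma adjusted p 0.993).

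The region before the start of Hspa1b is shown because this gene led the response, with a paired heat shock repeat in capitals. The window is the 250 bases before the RefSeq start site (GRCm38.p6, chr17:34959239-34959488, minus strand), and the repeat begins 104 bases before that site.
Hspa1b: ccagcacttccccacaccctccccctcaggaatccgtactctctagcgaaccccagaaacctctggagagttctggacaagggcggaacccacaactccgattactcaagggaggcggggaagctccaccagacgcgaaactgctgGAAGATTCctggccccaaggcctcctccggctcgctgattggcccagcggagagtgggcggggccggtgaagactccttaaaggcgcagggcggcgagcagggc
The repeat was searched as GAANNTTC or TTCNNGAA, which covers both strands, in windows of 250 bases before to 50 after the start. It was found for 9 of the 12 listed heat shock genes with a window, and for 14.1% of 12048 genes with a window. The longer element, GAANNTTC followed by NNGAA (or TTCNNGAA followed by NNTTC), contains the pair and was found for 4 of the 12 and for 0.548% of all. These 4 were Hsph1, Hspd1, Hspe1 and Chordc1, and the longer element was found for neither Hspa1b nor Hspa1a. Hspa1a lies beside Hspa1b and shares 247 of these 250 bases. How reads that match both copies were counted is not given in the sources used here, so the split of UMIs between Hspa1a and Hspa1b is uncertain.

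A second chaperone group, that of the endoplasmic reticulum (ER), was lower in most types, most clearly in the crypt-base fibroblasts BaseCryptFB2. ER chaperones fold proteins on their way to secretion and are raised by the unfolded protein response when this load exceeds capacity. Over all types 8 of 476 measured pairs of the ER list fell and 0 rose (1.68% lower calls), beside 0.0939% lower calls over all pairs. In 149 pairs (31.3%) the treated animals were lower without overlap, beside 9.44% of all pairs. The median of the ER list was below that of all genes in 20 of 24 types: 6 of 7 epithelial, 8 of 8 stromal and 6 of 9 immune. In BaseCryptFB2 4 of the 20 listed genes were among the 9 genes that fell (0.112% of all tested), and 17 of 20 did not overlap between arms and were lower, beside 6.5% of all genes tested there. The list's median difference was -0.81, while that of all genes was 0.01.

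Creld2, an ER protein of the unfolded protein response, lies on chromosome 15 (GRCm38, chr15:88819646-88826683, plus strand). In BaseCryptFB2 it was at 1.53, 2.7 and 1.93 with anti-GFP, 0.706, 0.359 and 0.237 with SZN-1326-p and 1.28 and 0.911 in uninjured mice. The difference of -2.07 with an SE of 0.29 had a limma adjusted p of 0.000275 and remained past the threshold with any animal left out. Hyou1, a large ER chaperone, had a narrow control group at 1.1, 1.14 and 1.09 against 0.49, 0.221 and 0.178 (-1.69 with an SE of 0.28, limma adjusted p 0.0026). Hspa5, the abundant ER Hsp70 also called BiP, was at 25.6, 29.4 and 28.7 against 17.5, 11.5 and 9.52, with 17.8 and 16.3 in uninjured mice (-1.16 with an SE of 0.25, limma adjusted p 0.0427). In all 3 genes SZN-1326-p replicate 1 was the nearest to the control animals. Sdf2l1, a co-factor of this system, also fell (-1.88, limma adjusted p 0.0402). The Hyou1 call was lost without SZN-1326-p replicate 2 or 3 (highest adjusted p 0.0885), and those of Hspa5 and Sdf2l1 without any 1 of 5 animals, all but SZN-1326-p replicate 1 (0.539 and 0.429). With cells that carry 2 markers of another lineage removed, Creld2 was the only gene still called in BaseCryptFB2 (limma adjusted p 0.0233), and Hyou1, Hspa5 and Sdf2l1 had adjusted p of 0.155, 0.449 and 0.155.

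The same list stood lower in the injury fibroblasts InjuryCryptFB2, where 17 of 20 members were lower without overlap, beside 7.92% of all genes, with a median of -0.57 beside 0.01 for all genes. Hyou1 was called, at 0.758, 0.799 and 0.847 against 0.376, 0.325 and 0.182 (limma adjusted p 0.0264, lost without anti-GFP replicate 2 or 3 or SZN-1326-p replicate 3, highest 0.436, and at 0.979 without cells that carry 2 markers of another lineage). Hspa5 was also called in LymphEndo, with 2 anti-GFP animals, and in StemCell, and Dnajc3, named after its values were seen, in AltEnterocyte. With 1 animal left out the LymphEndo call of Hspa5 remained in 1 of 5 fits and the StemCell call in 2 of 6 (highest limma adjusted p 1 and 0.417). In TA2, by contrast, Hspa5 levels of the arms overlapped, at 19.6, 10.6 and 9.98 against 12.4, 14.3 and 6.85. Summed plasma cell markers, which include the unfolded protein response factor Xbp1, were 5.0 to 5.2 in the anti-GFP arm against 3.09 to 4.24 in the SZN-1326-p arm in BaseCryptFB2, with 2 of the 6, Mzb1 and Tnfrsf17, at 0 in all libraries of both arms. Summed epithelial markers there were 1.03 to 2.01 in the anti-GFP arm against 2.07 to 5.8 in the SZN-1326-p arm, median UMIs per cell 12327 to 17299 against 6436 to 13172, and the level of long relative to short transcripts overlapped between the arms.

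**Figure D3:**
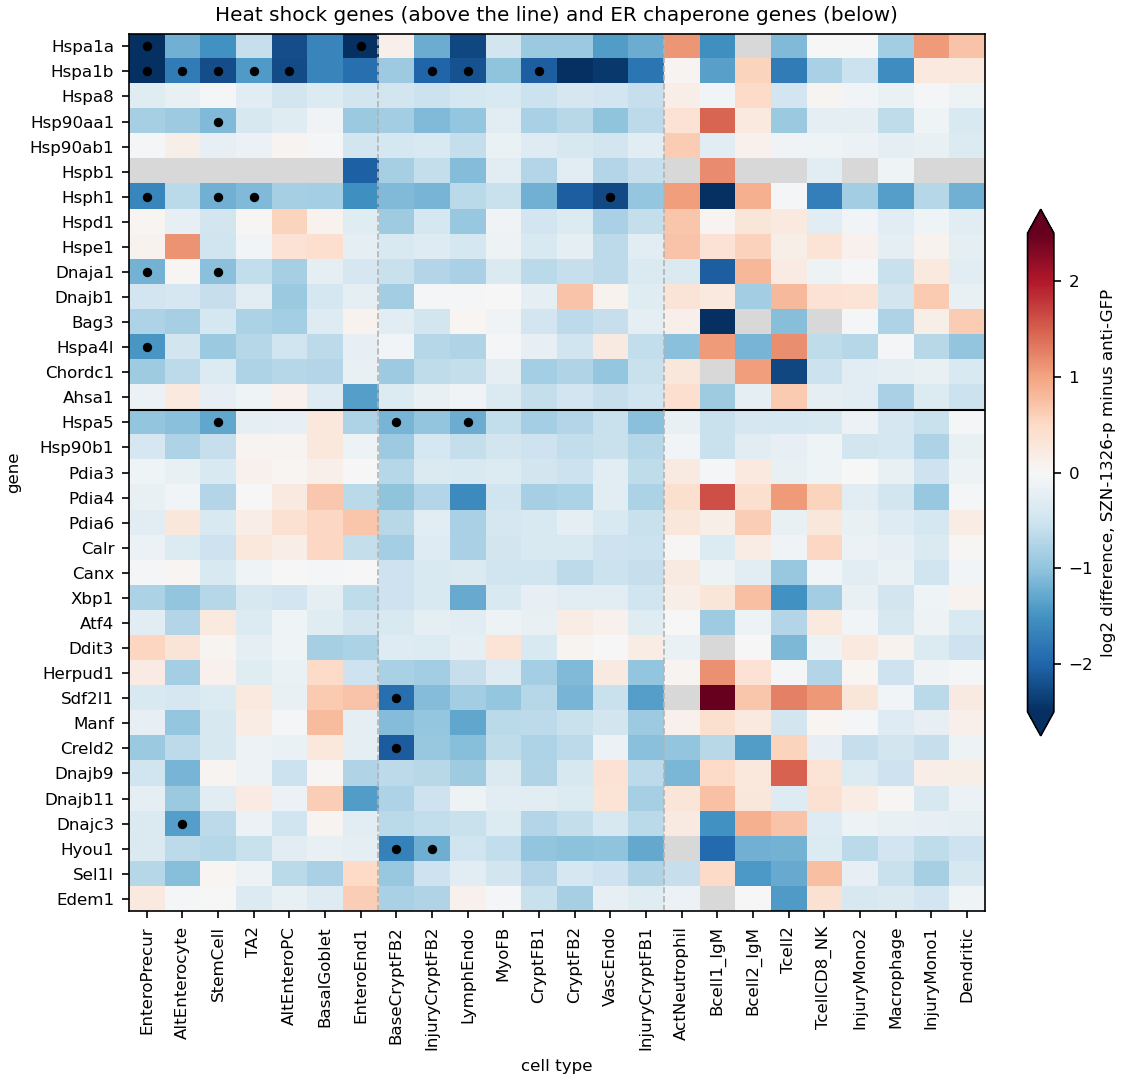
Differences of heat shock genes (above the line) and ER chaperone genes (below) in 24 types, as log2 of SZN-1326-p minus anti-GFP. Blue is lower and red higher with SZN-1326-p, values past 2.5 take the end colours, grey marks genes under the level filter and black dots mark called genes, of which all 26 are lower.

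The start regions of Hspa5 and Creld2 are shown because both fell in BaseCryptFB2 and hold the same ER stress response element, in capitals. The element was searched as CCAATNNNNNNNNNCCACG or its reverse complement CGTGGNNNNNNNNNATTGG. The windows are the 250 bases before the RefSeq start sites on the plus strand of GRCm38.p6, at chr2:34771840-34772089 for Hspa5 and chr15:88819396-88819645 for Creld2, with the elements beginning 65 and 126 bases before the start.
Hspa5: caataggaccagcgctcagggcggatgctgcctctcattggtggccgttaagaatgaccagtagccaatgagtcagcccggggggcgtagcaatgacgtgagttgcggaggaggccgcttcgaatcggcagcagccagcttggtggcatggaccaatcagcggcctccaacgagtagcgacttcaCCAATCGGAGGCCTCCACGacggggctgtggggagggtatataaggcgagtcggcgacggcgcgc
Creld2: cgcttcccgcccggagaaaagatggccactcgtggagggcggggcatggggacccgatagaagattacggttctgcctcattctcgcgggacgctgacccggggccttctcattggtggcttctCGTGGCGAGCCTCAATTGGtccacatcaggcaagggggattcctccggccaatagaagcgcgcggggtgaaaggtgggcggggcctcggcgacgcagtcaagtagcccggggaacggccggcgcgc
In Hspa5 the element reads in the direction of the gene and in Creld2 against it. It was found for 7 of 18 listed ER genes with a window and for 0.158% of all 12048 genes. A match describes the letters only.

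In the injury-associated absorptive cells, genes of mature colonocytes were lower with SZN-1326-p. In AltEnterocyte 46 genes fell (0.64%) and 20 rose (0.278%). Of the 36 listed colonocyte genes 10 fell and 0 rose, and 16 were lower without overlap, beside 9.77% of all genes. In AltEnteroPC 2 of 35 measured members fell and 1 rose (Aqp8, named after its values were seen), and 19 were lower without overlap, beside 13.7% of all genes.

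Guca2a encodes guanylin, the peptide that drives salt and water secretion through guanylate cyclase, and lies on chromosome 4 (GRCm38, chr4:119637704-119639471, plus strand). In AltEnterocyte it was at 127, 132 and 96 with anti-GFP and 15.9, 38.7 and 29.1 with SZN-1326-p (-2.16 with an SE of 0.27, limma adjusted p 1.19e-05). In AltEnteroPC it was at 57, 63.4 and 45 against 13, 9.24 and 12.3, with 30.9 and 21.9 in uninjured mice (-2.25 with an SE of 0.31, limma adjusted p 0.00162). The treated animals lay below both other groups, and both calls remained with any animal left out. Tmigd1, a brush border adhesion protein of mature cells, was at 2.48, 3.0 and 2.94 against 0.303, 0.455 and 0.248 in AltEnterocyte (-2.76 with an SE of 0.31, limma adjusted p 1.99e-06), also with any animal left out. Slc51b, part of the bile acid exporter, fell in AltEnterocyte (3.95, 2.74 and 2.18 against 0.786, 1.46 and 0.633) and in AltEnteroPC (1.66, 1.05 and 1.48 against 0.328, 0.376 and 0.41). Apol10a fell in both of these types and in EnteroPrecur, and each of its calls was lost in some fits with 1 animal left out (highest adjusted p 0.101, 0.117 and 0.0677). Car1, the abundant colonocyte carbonic anhydrase, fell from 103, 85.2 and 75.3 to 51.1, 37.8 and 39.8 in AltEnterocyte (limma adjusted p 0.0386), and the water channel Aqp4 from 4.49, 3.33 and 4.7 to 1.14, 0.0731 and 0.752. The Slc51b calls were lost without anti-GFP replicate 1 or 2 or SZN-1326-p replicate 3 in AltEnterocyte (highest adjusted p 0.127) and without anti-GFP replicate 1 or 3 or SZN-1326-p replicate 1 or 2 in AltEnteroPC (0.114), and that of Car1 for all but SZN-1326-p replicate 1 (0.177). That of Aqp4 was lost without anti-GFP replicate 1, 2 or 3 (0.132).

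Of 17 measured genes of the antioxidant and iron list 3 rose and 0 fell in AltEnterocyte: Gpx2, a glutathione peroxidase (a call kept in 1 of 6 fits with 1 animal left out), and the iron transporters Slc40a1 and Slc11a2. Another metal transporter among the 20 genes that rose, Slc30a10, is on no list and was grouped with them after its values were seen. Slc40a1, ferroportin, exports iron from the cell and was at 2.6, 1.77 and 2.21 with anti-GFP and 8.63, 5.34 and 7.83 with SZN-1326-p (1.67 with an SE of 0.27, limma adjusted p 0.000652). Slc11a2, the apical iron importer, was at 0.241, 0.278 and 0.325 against 2.81, 1.13 and 1.84 (2.33 with an SE of 0.46, limma adjusted p 0.00564). Slc30a10, a manganese exporter, was at 0.361, 0.037 and 0.0227 against 2.42, 1.77 and 1.44 (3.29 with an SE of 0.44, limma adjusted p 3.46e-05). In none of the 3 did the arms overlap. S100g, a calcium-binding protein of absorptive cells, was at 0 in the 3 anti-GFP libraries and at 5.0, 0.475 and 1.25 with SZN-1326-p (limma adjusted p 3.46e-05), where the arms were apart. The stress cytokine Gdf15 went from 0.129, 0.0645 and 0.377 to 1.21, 2.49 and 2.89, the ion pump subunit Fxyd4 from 0.00483, 0.0165 and 0 to 0.528, 1.0 and 1.48, and Ephb2, a receptor of crypt cells and a Wnt target, from 0.266, 0.242 and 0.163 to 1.69, 1.21 and 1.38 (limma adjusted p 0.00149). These 7 calls remained with any animal left out. Without cells that carry 2 markers of another lineage, that of S100g was lost (1.88, limma adjusted p 0.155) and the rest of the 7 remained. The Gpx2 call of AltEnterocyte was lost there too (0.14). The AltEnterocyte libraries are small, at 10, 11 and 23 cells with SZN-1326-p and 52, 34 and 20 with anti-GFP.

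In AltEnteroPC the genes that rose included Atp12a, a proton and potassium pump of the colon surface, at 0, 0 and 0.0439 against 0.202, 0.497 and 0.682 (2.20 with an SE of 0.30, limma adjusted p 0.00162). The call remained with any animal left out. Krt36, a hair-type keratin of colon surface cells, was at 0.0139, 0.0127 and 0 against 0.36, 0.24 and 0.605 (limma adjusted p 0.00416, and 0.0518 without anti-GFP replicate 3). Both genes are near the level filter, so these are small numbers of molecules per cell. Mal, a raft protein of apical sorting, fell there from 0.24, 0.228 and 0.568 to 0.0106, 0.00457 and 0.0453. Its call was lost without anti-GFP replicate 3 or SZN-1326-p replicate 1 or 2 (highest limma adjusted p 0.145).

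**Figure D4:**
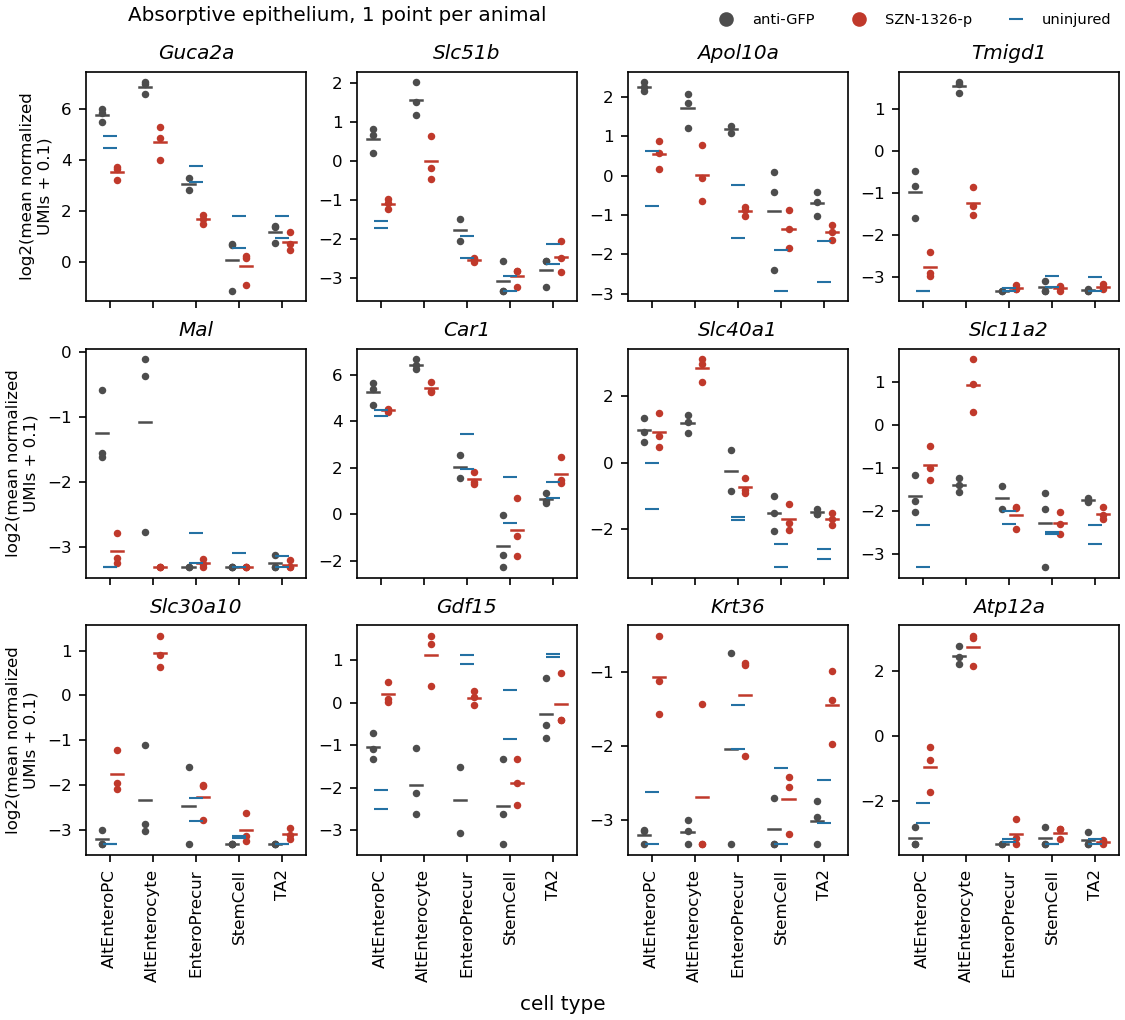
Levels of 12 genes in 5 epithelial types, as log2(mean normalized UMIs per cell + 0.1), 1 point per animal, with lines for arm means and blue dashes for uninjured mice where measured. In AltEnterocyte, Guca2a and Tmigd1 lie lower and Slc40a1, Slc11a2 and Slc30a10 higher in all 3 SZN-1326-p animals than in all 3 anti-GFP animals.

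EnteroPrecur, the enterocyte precursors, had 175 genes higher (2.29%) and 52 lower (0.681%), with only 2 anti-GFP libraries of 12 and 19 cells. Of 17 measured sterol synthesis genes 5 fell and 0 rose, and 12 were lower without overlap, beside 18.5% of all genes in this type. The median of this list was -0.56, that of all genes 0.01. Hmgcs1, an early enzyme of the pathway, was at 2.71 and 1.97 against 1.27, 1.07 and 1.11 (limma adjusted p 0.0258). The uninjured mice, at 1.36 and 1.29, lay beside the treated ones. Sqle, Lss and Insig1 (the last named after its values were seen) fell too. Genes that rose included Gdf15 (0.254 and 0.0189 to 0.993, 1.12 and 0.86), Aldh1b1, a crypt aldehyde dehydrogenase (0.486 and 0.241 to 0.937, 1.29 and 1.03), and Slc12a2, the basolateral chloride importer of crypt cells (4.03 and 2.09 to 7.02, 6.6 and 6.83). Npm1 and Nhp2, both of ribosome assembly, and Cks2, a cell cycle regulator, also rose. Leaving out any 1 of the 3 SZN-1326-p animals ended the calls of Hmgcs1, Gdf15, Aldh1b1 and Slc12a2 here (highest limma adjusted p 0.108, 0.0641, 0.0963 and 0.13). Sqle, Lss, Npm1, Nhp2 and Cks2 each remained in 2 of 5 such fits. Of the 175 genes that rose, 50 encode ribosomal proteins.

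In the dividing progenitors TA2, 12 genes rose (0.15%) and 3 fell, and 2 rose and 2 fell when levels were scaled to UMIs other than mitochondrial ones. Il18 encodes an epithelial cytokine of the interleukin-1 family and lies on chromosome 9 (GRCm38, chr9:50554827-50581840, plus strand). It was at 0.312, 0.272 and 0.286 with anti-GFP, 1.45, 1.34 and 1.37 with SZN-1326-p and 0.211 and 0.208 in uninjured mice, so the treated mice stood above both (1.93 with an SE of 0.24, limma adjusted p 0.00171). The call remained with any animal left out. Il18 also rose in StemCell, from 0.453, 0.299 and 0.168 to 1.29, 0.956 and 1.27 (limma adjusted p 0.00993, and up to 0.123 without SZN-1326-p replicate 1 or 3). Of 30 measured mitosis genes 3 rose and 0 fell in TA2, and 21 were higher without overlap, beside 10.5% of all genes. Their median was 0.69, beside -0.05 for all genes. Prc1, which bundles microtubules between separating chromosomes, was at 0.394, 0.85 and 0.512 with anti-GFP, 1.23, 1.42 and 1.4 with SZN-1326-p and 1.86 and 1.66 in uninjured mice (limma adjusted p 0.0401). Hmmr, a spindle protein, was at 0.275, 0.731 and 0.581 against 1.19, 1.41 and 1.4. Cks2 was at 1.08, 1.49 and 1.35 against 2.51, 2.43 and 2.88. In all 3 the anti-GFP animals were the low group. The calls of Prc1 and Cks2 were lost for any 1 of 5 animals, all but anti-GFP replicate 2 (highest 0.294 and 0.302), and that of Hmmr without anti-GFP replicate 1 or SZN-1326-p replicate 1, 2 or 3 (0.29). With scaling to UMIs other than mitochondrial ones the 3 had adjusted p of 0.0954, 0.0954 and 0.0678. Mki67 and Top2a, the usual markers of dividing cells, were not called (limma adjusted p 0.502 and 0.338). Of 28 DNA replication genes 0 were called, beside 0.187% of all genes in this type, so this count does not set them apart.

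In StemCell the largest called change was Adh1, an alcohol and retinol dehydrogenase on chromosome 3 (GRCm38, chr3:138260991-138290698, plus strand). It was at 0.232, 0.0329 and 0.331 with anti-GFP, 2.52, 2.29 and 3.92 with SZN-1326-p and 1.46 and 1.1 in uninjured mice (3.46 with an SE of 0.33, limma adjusted p 1.47e-07). Sycn, a protein of secretory granules, was at 0.423, 0.642 and 1.03 against 2.66, 4.61 and 4.56, with 4.56 and 4.45 in uninjured mice (2.37 with an SE of 0.31, limma adjusted p 0.000141). Hoxb13, a homeobox gene of the distal gut, was at 0, 0.0833 and 0 against 0.788, 0.459 and 1.37, with 1.17 and 0.481 in uninjured mice (limma adjusted p 0.000141). In each of the 3 the anti-GFP animals lay below both the treated and the uninjured mice, and each call remained with any animal left out. Muc3, a membrane mucin, rose from 0.634, 0.944 and 0.87 to 2.64, 2.34 and 5.95, a call lost without anti-GFP replicate 1 or 3 or SZN-1326-p replicate 3 (highest limma adjusted p 0.123). In BasalGoblet, Hoxb13 rose (remaining in 1 of 6 fits with 1 animal left out, highest limma adjusted p 0.149), and Duox2, which makes hydrogen peroxide at the cell surface, fell from 1.76, 1.23 and 2.21 to 0.447, 0.681 and 0.475 (limma adjusted p 0.0333). Irf1, an interferon-response factor, fell there from 1.45, 0.926 and 0.868 to 0.307, 0.153 and 0.332. The Duox2 call was lost without anti-GFP replicate 1 or 3 or SZN-1326-p replicate 1 or 3 and the Irf1 call without any 1 animal (highest 0.158 and 0.149). In EnteroEnd1, the enteroendocrine type, the called genes were Hspa1a, lower, and the ribosomal protein gene Rpl12, higher (named after its values were seen).

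The 13 Wnt pathway and cell cycle genes reported whatever their result comprise Wnt targets, Frizzled receptors and markers of dividing cells. In the reported fit none was called in any epithelial type: Axin2, Rnf43, Znrf3, Lgr5, Ascl2, Myc, Ccnd1, Sox9, Cd44, Fzd5, Fzd7, Mki67 and Top2a. This was not so under every setting. Without cells that carry 2 markers of another lineage, Cd44 was called lower in TA2 (-1.36, limma adjusted p 0.027). Mki67 was called higher in EnteroPrecur there (1.23, 0.0437). Ccnd1 in StemCell reached a limma adjusted p of 0.0414 in a fit with 1 animal left out. In EnteroPrecur, Mki67, Sox9, Rnf43, Fzd5, Ccnd1 and Myc also passed the threshold in some such fits. Their differences in the reported fit were 0.83, 0.69, 0.54, -0.68, -0.79 and -0.057. Leaving out either anti-GFP animal of this type leaves 1 in that arm, with its spread taken from the other groups. Axin2, the standard feedback target, was above the level filter in StemCell, TA2 and EnteroEnd1. In StemCell it was at 0.43, 0 and 0.258 with anti-GFP and 0.367, 0.208 and 0.191 with SZN-1326-p (0.38 with an SE of 0.42, limma adjusted p 0.802). The arms overlapped, and the standard error leaves room for a change of either sign. Lgr5, the stem cell receptor for R-spondins, was at 0.419, 0 and 0.466 against 0.0586, 0.241 and 0.0377 in StemCell (limma adjusted p 0.745). Rnf43 encodes a feedback inhibitor that removes Frizzled receptors. It was higher without overlap in AltEnterocyte (0.164, 0.0535 and 0.0573 against 0.781, 0.294 and 0.313, limma adjusted p 0.108), in BasalGoblet (0.0186, 0.0867 and 0.113 against 0.282, 0.279 and 0.302, 0.224) and in AltEnteroPC (0.129, 0.197 and 0.0836 against 0.51, 0.206 and 0.274, 0.366). Rnf43 was not called in these types in the reported fit. Of all genes, 6.17% in AltEnterocyte, 6.9% in BasalGoblet and 10.8% in AltEnteroPC were also higher without overlap. Whether Rnf43 was apart in more types than other genes was not tested. In StemCell and TA2 the arms of Rnf43 overlapped. Over all 24 types the Wnt target list had 2 calls, both higher (Ephb2 in AltEnterocyte, Slc12a2 in EnteroPrecur), among 165 measured pairs (0.26% of all pairs were called). The lists of Wnt receptors, Wnt ligands and R-spondins, and secreted Wnt inhibitors had 0 calls among 149, 64 and 48 pairs.

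Outside the chaperones, called changes in fibroblasts were few and particular genes stood out in single types. In BaseCryptFB2, Cp, the copper oxidase ceruloplasmin, was at 3.72, 2.73 and 2.37 with anti-GFP and 1.07, 0.902 and 1.08 with SZN-1326-p (limma adjusted p 0.0331) and Chl1, an adhesion molecule, at 3.02, 2.95 and 1.67 against 0.588, 0.621 and 0.407. For Chl1 both uninjured mice were at 0, on the side of the treated mice. In CryptFB2 the only called gene was Serpina3n, an acute phase protease inhibitor, at 1.45, 2.19 and 0.879 against 0.125, 0.439 and 0.136 (-2.31 with an SE of 0.35, limma adjusted p 0.00341). In CryptFB1 the interferon-induced GTPase Iigp1 fell from 3.85, 5.4 and 5.33 to 2.35, 2.04 and 1.04 (limma adjusted p 0.0368). In InjuryCryptFB2 the neutrophil chemokine Cxcl1 rose from 0.119, 0.0701 and 0.154 to 0.605, 0.308 and 0.437 (limma adjusted p 0.0453). In LymphEndo, Selp, the adhesion molecule P-selectin, fell from 1.07 and 4.27 in 2 anti-GFP mice to 0.0409, 0.0839 and 0.725 (limma adjusted p 0.00442). None of these calls held in every fit with 1 animal left out: Cp was lost for all but anti-GFP replicate 3, Chl1 without anti-GFP replicate 1 or 2 or SZN-1326-p replicate 2 or 3, Serpina3n without anti-GFP replicate 2 or SZN-1326-p replicate 3, Iigp1 without anti-GFP replicate 1, 2 or 3 or SZN-1326-p replicate 3, Cxcl1 for all but SZN-1326-p replicate 2 and Selp without anti-GFP replicate 2. The highest adjusted p was 0.188 for both Cp and Chl1, 0.105 for Serpina3n, 0.694 for Iigp1, 0.439 for Cxcl1 and 1 for Selp. Without cells that carry 2 markers of another lineage, Cp, Chl1, Iigp1 and Cxcl1 were no longer called (limma adjusted p 0.332, 0.583, 0.989 and 0.992). Serpina3n in CryptFB2 and Selp in LymphEndo could not be fitted this way. Matrix and collagen genes had 0 calls among 307 pairs in all types. With 0.26% of all pairs called, this count does not set them apart from other genes.

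Among immune cells the activated neutrophils had the most called genes, and ribosomal protein genes made up most of those that rose. Of the 40 higher calls in ActNeutrophil 29 were genes of ribosomal proteins, the structural parts of the ribosome, and 3 were of the 8 epithelial markers described below. Of 82 ribosomal protein genes measured there 81 had a difference above 0, with a median of 0.97 beside 0.04 for all genes, and 27 of the 29 were also called higher in EnteroPrecur. The median of these genes was above that of all genes in 24 of 24 types, from 0.14 in CryptFB2 to 1.08 in Tcell2, and also under both other scalings. These genes were grouped after their values were seen. The higher calls of ActNeutrophil had a median length of 1607.5 bases, beside 3403 for all genes. The level of long relative to short transcripts in ActNeutrophil was 0.13 to 0.18 in the anti-GFP arm against -0.32 to -0.046 in the SZN-1326-p arm, and median UMIs per cell were 3000 to 3141 against 1761 to 2504. The part of transcript length and depth in these calls was not tested. The count of 62 fell to 17 without SZN-1326-p replicate 3.

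Other genes of the neutrophils moved in both directions. Lcn2, which binds bacterial iron carriers, was at 31.4, 34.3 and 13.7 with anti-GFP and 12.1, 10.6 and 5.48 with SZN-1326-p (-1.45 with an SE of 0.28, limma adjusted p 0.00198). Crem, a regulator of cyclic AMP responses, was at 3.05, 4.48 and 2.49 against 0.355, 1.34 and 0.661 (-2.08 with an SE of 0.45, limma adjusted p 0.00318). Both fell in every treated animal relative to every control. Atf3, a stress-induced transcription factor, rose from 1.72, 1.4 and 1.84 to 5.79, 4.39 and 5.3 (1.59 with an SE of 0.37, limma adjusted p 0.00948). The Lcn2 call was lost without SZN-1326-p replicate 3 (0.0532), that of Crem without anti-GFP replicate 2 or SZN-1326-p replicate 1 (0.0876) and that of Atf3 without anti-GFP replicate 2 or SZN-1326-p replicate 3 (0.0934).

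Monocytes and macrophages had few called genes. In InjuryMono1 the only one was Mmp19, a matrix metalloproteinase, at 3.78, 3.85 and 4.69 with anti-GFP and 0.793, 1.64 and 1.39 with SZN-1326-p (-1.66 with an SE of 0.27, limma adjusted p 0.025). In InjuryMono2, Bst1, a surface enzyme of myeloid cells, fell from 1.19, 1.65 and 0.966 to 0.437, 0.515 and 0.478. In Macrophage, S100a6, a calcium-binding protein, was at 0.495, 0.679 and 1.16 against 2.11, 2.44 and 3.03, with 2.75 and 3.63 in uninjured mice (limma adjusted p 0.0215). The treated and uninjured mice thus lay together above the anti-GFP mice. Summed monocyte and macrophage markers were 183 to 211 in the anti-GFP arm against 256 to 269 in the SZN-1326-p arm in this type. Without 1 animal, Mmp19 was lost for anti-GFP replicate 1 or 3 (highest 0.145), Bst1 for anti-GFP replicate 1 or 2 or SZN-1326-p replicate 1 or 3 (0.611) and S100a6 for anti-GFP replicate 1 or 2 or SZN-1326-p replicate 2 or 3 (0.321). Without cells that carry 2 markers of another lineage, Bst1 and S100a6 were no longer called (limma adjusted p 0.7325 and 0.709). Mmp19 in InjuryMono1 could not be fitted this way.

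Some of the genes called in lymphocytes belong to other lineages. In TcellCD8_NK the 3 genes that rose were Cpa3 and Mcpt8, proteases of mast cells and basophils, and Cd63, a marker of their granules. Mcpt8 was at 0 and 0 in 2 anti-GFP mice and 0.453, 1.74 and 3.47 with SZN-1326-p (limma adjusted p 0.00285), and Cpa3 at 0 and 0.0464 against 1.43, 2.94 and 0.867. Both calls were lost without either anti-GFP animal (highest 0.205 and 0.614). In Tcell2 the gut hormones Pyy and Insl5 were at 0 in all anti-GFP libraries and at 2.61, 107 and 0.725 and 2.47, 82.7 and 0.667 with SZN-1326-p. SZN-1326-p replicate 2 had by far the highest level, and without it both calls were lost, that of Insl5 also without anti-GFP replicate 3 (highest limma adjusted p 0.498 and 0.283). The third gene, Tpt1, a growth-related protein, rose from 6.45, 12.8 and 10.7 to 19.5, 29.6 and 31.5 (limma adjusted p 0.0244), a call lost without anti-GFP replicate 1 or 3 or SZN-1326-p replicate 2 or 3 (highest 0.657). In the B cells Bcell2_IgM, the activation gene Nr4a1 rose from 0.251 and 1.57 to 3.99, 7.65 and 2.68 (limma adjusted p 9.31e-08), lost without anti-GFP replicate 1 or 2 or SZN-1326-p replicate 1 or 2 (highest 0.997).

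Genes typical of epithelial cells rose in several stromal and immune types. Gpx2, a glutathione peroxidase of gut epithelium that detoxifies peroxides, had a difference above 0 in 24 of 24 types and rose in 6. In ActNeutrophil it was at 0.332, 1.5 and 0.257 with anti-GFP and 3.18, 4.6 and 5.88 with SZN-1326-p (2.85 with an SE of 0.41, limma adjusted p 3.42e-06). In InjuryCryptFB2 it was at 0.125, 0.244 and 0.167 against 0.70, 0.671 and 1.46 (1.85 with an SE of 0.28, limma adjusted p 0.00112). Both calls remained with any animal left out. The InjuryCryptFB2 call was lost without cells that carry 2 markers of another lineage (adjusted p 0.79). In TA2, where epithelial cells themselves make it, the level was 10.1, 10.4 and 9.61 against 14.6, 17.8 and 14, without overlap and not called (limma adjusted p 0.154). Summed epithelial markers moved alongside: 7.41 to 15.1 in the anti-GFP arm against 19.2 to 45.9 in the SZN-1326-p arm in ActNeutrophil, and 1.17 to 2.96 in the anti-GFP arm against 3.69 to 9.8 in the SZN-1326-p arm in InjuryCryptFB2, with no marker of the 8 at 0. Of these markers, Krt8, a keratin of simple epithelia, rose in ActNeutrophil, Bcell2_IgM, InjuryCryptFB2 and MyoFB, and Epcam, the epithelial adhesion molecule, in ActNeutrophil and MyoFB. The 4 Krt8 calls were each lost in 3 or more fits with 1 animal left out, and the Epcam call of ActNeutrophil in 1 of 6 (highest limma adjusted p 0.0677). The hormone genes Pyy, Insl5 and Gcg rose in InjuryCryptFB2, of which Pyy remained in all 6 such fits, Gcg in 4 and Insl5 in 2. In MyoFB, Epcam was at 0.037, 0.193 and 0.0622 against 0.627, 0.32 and 0.978, beside summed epithelial markers of 0.59 to 2.04 in the anti-GFP arm against 2.96 to 6.68 in the SZN-1326-p arm, a call lost without anti-GFP replicate 1 or 3 or SZN-1326-p replicate 1 or 3 (highest limma adjusted p 0.6). Guca2a showed the opposite sign outside the epithelium, as inside it: it was at 0.589, 0.62 and 0.289 against 0.0944, 0.0632 and 0.0202 in Macrophage (limma adjusted p 0.0111) and at 0.721, 2.15 and 1.55 against 0.176, 0 and 0.397 in ActNeutrophil (0.0026). These 2 calls were lost without anti-GFP replicate 1 or 2 or SZN-1326-p replicate 2 or 3 (highest 0.261) and without anti-GFP replicate 2 or SZN-1326-p replicate 2 (0.0709), respectively. Without cells that carry 2 markers of another lineage, Krt8 and Insl5 in InjuryCryptFB2 were no longer called (limma adjusted p 0.992 for both). Nor were Gpx2 in InjuryMono2 (0.711), Guca2a in Macrophage (0.9998) and Krt8 in MyoFB. ActNeutrophil could not be fitted this way. The part of epithelial RNA or of mixed cells in these calls was not tested.

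**Figure D5:**
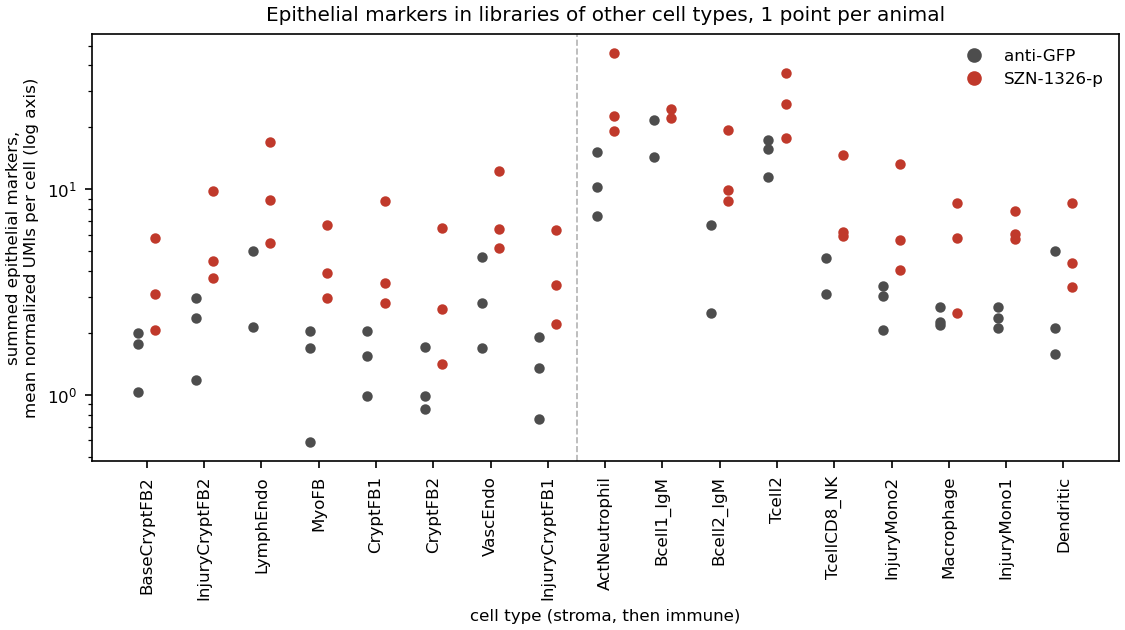
Summed level of 8 epithelial markers in libraries of 17 stromal and immune types (vertical axis, mean normalized UMIs per cell, log scale), 1 point per animal. In 14 of the 17 types every SZN-1326-p animal lies above every anti-GFP animal.

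Whether a response differed between layers or types was tested directly on the 6 animals, in the 18 types with 10 or more cells in each of them. Between epithelium and stroma 64 of 8004 genes differed (0.8%), between epithelium and immune types 9 of 8242 (0.109%) and between stroma and immune types 16 of 8274 (0.193%). These counts were 4, 0 and 0 without cells that carry 2 markers of another lineage. That fit kept only types with 10 or more remaining cells in all 6 animals, so each layer was averaged over fewer types. In the epithelium these were AltEnteroPC, BasalGoblet, StemCell and TA2, and in the stroma BaseCryptFB2 and InjuryCryptFB2. No immune type could be set against others of its layer. The removal of cells and the change of types cannot be told apart here. Hspa1b differed from the immune types in both other layers. Its mean response was -1.85 over epithelial types, -1.83 over stromal types and -0.55 over immune types. The differences were -1.31 with an SE of 0.27 and -1.28 with an SE of 0.22, with limma adjusted p of 0.0121 and 0.00181, rising to at most 0.309 and 0.0999 with 1 animal left out. Sdf2l1, of the ER group, responded in the stroma with -1.11, in immune types with 0.34 and in the epithelium with -0.01. The stroma differed from the immune types (-1.45 with an SE of 0.23, limma adjusted p 0.000838, at most 0.0335 with 1 animal left out) and from the epithelium (0.00499, at most 0.0561). None of these 4 differences passed the threshold with the same cells removed (limma adjusted p 0.818 and 0.948 for Hspa1b, and 0.824 and 0.134 for Sdf2l1).

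Other genes told the epithelium from the stroma with any animal left out, but none of those that could be fitted did so without cells that carry 2 markers of another lineage (5 of the 6 named here, limma adjusted p 0.119 to 0.959). Reg3g, an antimicrobial lectin of injured epithelium, had a mean response of -1.98 in the epithelium and -0.19 in the stroma (limma adjusted p of the difference 3.89e-07). In AltEnterocyte it was at 12.7, 17.1 and 5.37 against 0.27, 0.0366 and 1.15, not called (limma adjusted p 0.131), and in the other 6 epithelial types the arms overlapped. Klf2, a factor of quiescent cells, had -0.71 against 0.57 and Ccnd1, the G1 cyclin D1, -0.49 against 0.63. Both moved in opposite directions in the layers' means (limma adjusted p of the differences 0.000201 and 0.00311), without a called change of Ccnd1 in any single epithelial type in the reported fit. Nbea responded more negatively in the epithelium (-1.17), and Fxyd4 and Ly6c1 more positively (1.03 and 0.96).

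Within layers, each of the 18 types was set against the others, and 3 had most differing genes: AltEnteroPC with 88 of 7639 (1.15%), AltEnterocyte with 28 of 7193 (0.389%) and, in the stroma, BaseCryptFB2 with 9 of 8011 (0.112%). With 1 animal left out these counts ran from 40 to 112, 0 to 35 and 7 to 18. AltEnterocyte had 0 without anti-GFP replicate 3 and 0 with a pseudocount of 0.01. In the stroma, CryptFB2 and InjuryCryptFB2, with 18 and 16, stood above BaseCryptFB2, with 12, without anti-GFP replicate 1. Against the other epithelial types, the response of AltEnteroPC was more positive for Atp12a (2.08 with an SE of 0.30), for Slc37a2, a sugar phosphate exchanger (2.11), and for the enolase Eno3 (1.89). It was more negative for Car4, a membrane carbonic anhydrase (-1.87), Slc51b (-1.48) and Ggh (-1.48). The limma adjusted p of these 6 differences ran up to 0.000614. In StemCell the response of Adh1 exceeded that of the other epithelial types by 2.28 with an SE of 0.32 and that of Muc3 by 1.86 with an SE of 0.25 (limma adjusted p 0.000351 and 0.000306). These differences remained past the threshold with any animal left out.

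Among fibroblasts, BaseCryptFB2 had a more negative response than the other stromal types for Cp (-1.84 with an SE of 0.25), for the cytokine Il6 (-1.35 with an SE of 0.24) and for the BMP inhibitor Grem1 (-1.28 with an SE of 0.19). Il6 was at 5.94, 4.68 and 4.25 with anti-GFP and 3.82, 2.15 and 2.12 with SZN-1326-p there, and Grem1 at 29.9, 23.2 and 9.51 against 9.55, 9.05 and 6.95. Neither was called within the type (limma adjusted p 0.676 and 0.526). Creld2 also differed there (-1.37, limma adjusted p 0.00292, up to 0.0562 with 1 animal left out). Hspa1a, by contrast, was more positive in BaseCryptFB2 than in the other types by 1.15 (0.00214, up to 0.0744), with levels of 1.42, 1.5 and 1.25 against 2.11, 1.05 and 1.57. Iigp1 split 2 fibroblast types. It fell in CryptFB1, while in InjuryCryptFB1 it was at 0.554, 0.526 and 0.384 against 2.6, 2.28 and 0.864, a response above that of the other stromal types by 2.18 with an SE of 0.22 (limma adjusted p 4.12e-05). Igfbp5, a growth factor binding protein, was more negative in InjuryCryptFB1 (-0.80). In the myofibroblasts MyoFB, Acta2, their smooth muscle actin, had a response of 0.21 against 1.12 in the other stromal types, and Hspa1b one of -1.01 against -1.97 (limma adjusted p of the difference 0.00498, up to 0.0683 with 1 animal left out). In Macrophage, Ccl4, a chemokine for lymphocytes and monocytes, had a response of -0.88 against 0.89 in the other immune types, with levels of 13.1, 21.8 and 12.2 against 10.5, 9.08 and 5.77. Apart from Creld2, Hspa1a and Hspa1b, the differences given here for these genes remained past the threshold with any animal left out. The 5 differences of BaseCryptFB2 did not pass it without cells that carry 2 markers of another lineage (limma adjusted p 0.457 to 0.908). InjuryCryptFB2 was then the only other stromal type in the comparison. Those of InjuryCryptFB1, MyoFB and Macrophage were not fitted.

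Over all types, the colonocyte list had 17 lower and 4 higher calls among 508 pairs (3.35% and 0.787%), beside 0.0939% lower and 0.166% higher calls over all pairs. The antioxidant and iron list had 10 higher and 0 lower calls among 380 pairs (2.63% higher), 6 of them Gpx2. The antimicrobial and acute phase list had 4 lower and 0 higher calls among 215 (1.86% lower), and the goblet secretion list 3 lower and 0 higher among 255 (1.18% lower). The list's median was below that of all genes in 21 of 24 types for the antimicrobial list and in 22 of 24 for the goblet list. Interferon response genes had 2 lower calls among 582 pairs (0.344%) and the NF-kB and cytokine list 3 higher calls among 464 (0.647%). Oxidative phosphorylation genes had 0 calls among 768 pairs. In 171 of these pairs (22.3%) the treated animals were higher without overlap, beside 9.52% of all pairs, and the median was below that of all genes in 1 of 24 types. MHC class II and DNA replication genes had 0 calls among 111 and 266 pairs, beside 0.26% of all pairs, which does not set them apart.

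Of the 148 named calls of a gene in a type, 13 remained past the threshold under every alternative that could be fitted. In the epithelium these were Adh1 and Sycn in StemCell, Il18 in TA2, Guca2a in AltEnteroPC and AltEnterocyte, Tmigd1, Slc40a1, Slc30a10 and Fxyd4 in AltEnterocyte, and Hspa1b in EnteroPrecur. Outside it they were Creld2 in BaseCryptFB2 and, in ActNeutrophil, Gpx2 and the enteroendocrine hormone gene Gcg. ActNeutrophil could not be fitted without cells that carry 2 markers of another lineage, so its calls did not face that alternative. StemCell, AltEnterocyte and EnteroPrecur had too few libraries of at least 20 cells, so their calls did not face that minimum. The Gpx2 calls of InjuryCryptFB2 and InjuryMono2 were lost without cells that carry 2 markers of another lineage (limma adjusted p 0.79 and 0.711).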

How the data were processed

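Cells of mouse transverse colon were sequenced with droplet single-cell RNA-seq, 1 library per animal. Reads were processed with Cell Ranger 3.0.2 against mm10, per the submitters' processing notes. The authors deposited log2 values per gene and cell and an annotation of each cell's animal, type and tissue layer, taken here as given. Un-logging the deposited log2 values and subtracting 1 gave whole multiples of a step per cell for 100% of 60867816 values above 0 (tolerance 1e-06), so UMIs were recovered. How the size factors and the doublets were treated is not given in the sources used here. The other deposited columns are labels, per the file headers, not measurements.

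For each animal and type with at least 10 cells, the mean of un-logged values was taken. Genes with a mean of the 2 arm means of at least 0.1 were tested on log2(mean + 0.1) in limma 3.58.1 (R 4.3.3), with intensity trend and robust variance, all of the study's groups that held the type in 1 fit, and Benjamini-Hochberg adjustment within the type at 0.05. The contrast was SZN-1326-p minus anti-GFP at 48 h. Differences between layers or types were tested in limma on each animal's levels, over the 18 types with 10 or more cells in all 6 animals. Scripts were tested on simulated data. Named genes were up to 3 per type and direction with the largest change (mean at least 0.5 and no overlap of the arms), up to 10 per direction called in most types, 13 Wnt and cycle genes whatever their result, up to 4 per list, and up to 5 per direction in each tested difference. Genes of ribosomes, mitochondria, antigen receptors and haemoglobin and unnamed gene models stayed in the counts and were left out of the names. Some genes that the rule picked are not reported here. The cell types, the 27 gene lists and this rule were chosen with earlier results of these data known. Coordinates come from GENCODE vM21 (GRCm38), with 15876 of 16039 symbols found once, and sequences from RefSeq (GRCm38.p6). Alternatives were the 48 h animals alone, means of the deposited log2 values, another pseudocount, no level filter, voom on UMI sums, a minimum of 20 cells, 2 other scalings, a replicate block, removal of cells with markers of another lineage, and leaving out each animal.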

Additional observations from a re-analysis of the deposited data

Results flagged for a closer look

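Responses to SZN-1326-p differed between layers or between a type and the other types of its layer for the genes given here, which are chaperone genes past the threshold and other named genes whose difference passed it with each animal left out. Of 88 named differences 22 passed with each animal left out, and 29 are listed. Values are differences of log2 responses by limma, with adjusted p of at most 0.021. Without cells that carry 2 markers of another lineage 8 of the 23 that could be fitted passed the threshold, those of AltEnteroPC and StemCell. Fewer types entered that fit, as given above. No explanation was tested.

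Between epithelium and stroma, the difference was 1.10 for Sdf2l1, 1.03 for Fxyd4, 0.96 for Ly6c1, -1.80 for Reg3g, -1.28 for Klf2, -1.17 for Nbea and -1.12 for Ccnd1. Hspa1b differed by -1.31 between epithelium and immune types. Between stroma and immune types the difference was -1.45 for Sdf2l1, -1.28 for Hspa1b and -1.02 for Hspa1a, the last with an adjusted p of up to 0.229 when 1 animal was left out. Without cells that carry 2 markers of another lineage, and with fewer types in each layer, the Hspa1a difference turned to 0.76. None of the 10 layer differences listed here that could be fitted passed the threshold there.

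AltEnteroPC differed from the other epithelial types by 2.11 for Slc37a2, 2.08 for Atp12a, 1.89 for Eno3, -1.87 for Car4, -1.48 for Slc51b and -1.48 for Ggh, and StemCell by 2.28 for Adh1 and 1.86 for Muc3. BaseCryptFB2 differed from the other stromal types by 1.15 for Hspa1a, -1.84 for Cp, -1.37 for Creld2, -1.35 for Il6 and -1.28 for Grem1. InjuryCryptFB1 differed by 2.18 for Iigp1 and -0.80 for Igfbp5, and MyoFB by 0.96 for Hspa1b and -0.91 for Acta2. Among immune types, Macrophage differed by -1.78 for Ccl4.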

How the results depend on the processing

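Counts of called genes depended on the settings. Of the 148 named called pairs of a gene and a type, 0 changed sign under any alternative. These pairs were chosen because they were called, and nearly all called genes had arms that did not overlap. Leaving out 1 animal cannot change the sign where the arms do not overlap, so this says little about the direction. A count is said to move where it differs from the reported one by more than 1.5 times. Of the 148 pairs, 139 remained called with median-of-ratios scaling, 126 with scaling to UMIs other than mitochondrial ones, 99 with means of deposited log2 values, 97 with the 48 h mice alone, 86 with voom, 78 with the smaller pseudocount and 62 without the level filter. All 65 that could be fitted with at least 20 cells a library remained, and 70 of 106 without cells that carry 2 markers of another lineage. With 1 animal left out, 419 of 839 refits remained called.

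In a fit of the 6 mice at 48 h alone, 22 of 28 counts moved, to 474 in AltEnteroPC, 36 in AltEnterocyte, 3 in Bcell1_IgM, 14 in CryptFB1, 27 in CryptFB2, 14 in EnteroEnd1, 26 in EnteroPrecur, 5 in InjuryCryptFB1, 65 in InjuryCryptFB2, 0 in InjuryMono1, 47 in InjuryMono2, 37 in LymphEndo, 4 in Macrophage, 15 in MyoFB, 12 in StemCell, 6 in TA2, 10 in Tcell2, 15 in VascEndo, 574 in all epithelial types, 194 in all stromal types, 150 in all immune types and 918 in all types together. With library levels as means of the deposited log2 values, 23 of 32 counts moved, to 92 in AltEnteroPC, 11 in BasalGoblet, 0 in Bcell1_IgM, 1 in Bcell2_IgM, 11 in CryptFB1, 7 in CryptFB2, 1 in Dendritic, 0 in EnteroEnd1, 375 in EnteroPrecur, 5 in InjuryCryptFB1, 27 in InjuryCryptFB2, 5 in InjuryMono1, 12 in InjuryMono2, 0 in MyoFB, 60 in TA2, 2 in VascEndo, 633 in all epithelial types, 77 in all stromal types, 822 in all types together, 155 for the difference between epithelium and stroma, 91 for that between epithelium and immune types, 97 for that between stroma and immune types and 300 for differences of 1 type from its layer. A pseudocount of 0.01 in place of 0.1 moved 22 of 32, to 35 in ActNeutrophil, 5 in AltEnteroPC, 3 in BasalGoblet, 2 in BaseCryptFB2, 0 in Bcell1_IgM, 0 in Bcell2_IgM, 1 in CryptFB1, 0 in CryptFB2, 0 in EnteroEnd1, 0 in InjuryMono1, 1 in LymphEndo, 1 in Macrophage, 0 in MyoFB, 11 in StemCell, 5 in Tcell2, 1 in TcellCD8_NK, 14 in all stromal types, 44 in all immune types, 21 for the difference between epithelium and stroma, 2 for that between epithelium and immune types, 0 for that between stroma and immune types and 80 for differences of 1 type from its layer. Without the level filter 19 of 28 moved, to 20 in AltEnterocyte, 0 in BasalGoblet, 2 in BaseCryptFB2, 1 in CryptFB1, 2 in CryptFB2, 33 in EnteroPrecur, 2 in InjuryCryptFB2, 0 in InjuryMono1, 0 in InjuryMono2, 0 in LymphEndo, 0 in Macrophage, 0 in MyoFB, 14 in StemCell, 1 in TA2, 1 in TcellCD8_NK, 2 in VascEndo, 82 in all epithelial types, 9 in all stromal types and 170 in all types together. With limma-voom on UMI sums 18 of 28 moved, to 283 in ActNeutrophil, 119 in AltEnteroPC, 41 in AltEnterocyte, 0 in BasalGoblet, 7 in BaseCryptFB2, 2 in Bcell2_IgM, 3 in CryptFB2, 1 in InjuryCryptFB1, 7 in InjuryMono1, 14 in InjuryMono2, 19 in LymphEndo, 0 in Macrophage, 0 in MyoFB, 123 in TA2, 0 in Tcell2, 3 in VascEndo, 313 in all immune types and 883 in all types together. With at least 20 cells a library 5 of 18 moved, to 46 in AltEnteroPC, 6 in InjuryCryptFB1, 6 in TcellCD8_NK, 61 in all epithelial types and 168 in all types together. Without cells that carry 2 markers of another lineage 13 of 23 moved, to 122 in AltEnterocyte, 1 in BaseCryptFB2, 1 in CryptFB1, 1 in EnteroEnd1, 0 in InjuryCryptFB2, 0 in InjuryMono2, 1 in MyoFB, 39 in TA2, 4 in all stromal types, 2 in all immune types, 4 for the difference between epithelium and stroma, 0 for that between epithelium and immune types and 0 for that between stroma and immune types. The layer counts of that setting rest on fewer types, those with 10 or more remaining cells in all 6 animals. Median-of-ratios scaling moved 2 of 32, to 4 in EnteroEnd1 and 27 in TA2. Scaling to UMIs other than mitochondrial ones moved 2 of 32, to 4 in LymphEndo and 4 in TA2.

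With each animal left out in turn, the counts ranged from 17 to 79 in ActNeutrophil, from 2 to 10 in AltEnteroPC, from 27 to 119 in AltEnterocyte, from 0 to 14 in BasalGoblet, from 1 to 16 in BaseCryptFB2, from 0 to 1075 in Bcell1_IgM, from 0 to 2 in Bcell2_IgM, from 1 to 5 in CryptFB1, from 0 to 5 in CryptFB2, from 0 to 0 in Dendritic, from 0 to 23 in EnteroEnd1, from 1 to 2090 in EnteroPrecur, from 0 to 2 in InjuryCryptFB1, from 4 to 18 in InjuryCryptFB2, from 0 to 24 in InjuryMono1, from 0 to 7 in InjuryMono2, from 1 to 11 in LymphEndo, from 0 to 5 in Macrophage, from 0 to 3 in MyoFB, from 6 to 51 in StemCell, from 1 to 19 in TA2, from 1 to 12 in Tcell2, from 1 to 7 in TcellCD8_NK, from 0 to 2 in VascEndo, from 94 to 2160 in all epithelial types, from 8 to 40 in all stromal types, from 35 to 1119 in all immune types, from 167 to 3309 in all types together, from 12 to 82 for the difference between epithelium and stroma, from 1 to 36 for that between epithelium and immune types, from 2 to 16 for that between stroma and immune types and from 101 to 176 for differences of 1 type from its layer. The counts above 1000 in EnteroPrecur and Bcell1_IgM arose where 1 animal was left in an arm and its spread was taken from the other groups. No label states that the replicate numbers pair the animals. Over genes, deviations of same-numbered animals from their group means correlated by -0.0031, -0.0078 and 0.0354, and those of others by -0.0293 to 0.0329. Not every animal correlated best with its own number, though the highest value was of a same-numbered pair. With 3 animals an arm these values cannot tell whether same-numbered animals shared a processing step. The block is therefore given as a setting. With the replicate number as a block 26 of 30 counts moved, to 118 in ActNeutrophil, 624 in AltEnteroPC, 17 in BasalGoblet, 107 in BaseCryptFB2, 128 in CryptFB1, 19 in CryptFB2, 15 in Dendritic, 141 in EnteroPrecur, 68 in InjuryCryptFB1, 106 in InjuryCryptFB2, 28 in InjuryMono1, 65 in InjuryMono2, 24 in LymphEndo, 5 in Macrophage, 55 in MyoFB, 20 in Tcell2, 9 in TcellCD8_NK, 48 in VascEndo, 895 in all epithelial types, 555 in all stromal types, 263 in all immune types, 1713 in all types together, 105 for the difference between epithelium and stroma, 27 for that between epithelium and immune types, 33 for that between stroma and immune types and 367 for differences of 1 type from its layer. The block kept 128 of 143 named calls. Among the 88 named differences between layers or types, 5 changed sign under 1 setting. Without cells that carry 2 markers of another lineage, Ptgs2 went from 0.85 to -0.29, Insl5 from -1.27 to 0.40 and Hspa1a from -1.02 to 0.76 between stroma and immune types. C1qtnf3 went from 1.21 to -0.0567 in InjuryCryptFB2 against other stromal types. These 4 were then compared over fewer types, so the change of types is part of the setting. With means of the deposited log2 values, Serpina3n in CryptFB2 against other stromal types went from -1.52 to 0.13. The cause was not tested. Depth limits low genes: Axin2 passed the level filter in 3 of 24 types, and the smaller arm of AltEnterocyte and of EnteroPrecur held 10 to 23 and 12 to 19 cells a library.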
